A study of Mus musculus with 6 samples.

Results

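Laminin chains, integrin subunits and the proteins that tie them to basement membranes were followed in whole testes of mutant mice. The genes were taken by symbol from the platform annotation: every laminin alpha, beta or gamma chain, every integrin alpha or beta subunit except Itgam, and Nid1, Nid2, Agrn and Dag1. This gave 38 of the 18193 genes that had a probe set naming a single gene, and the choice used no measured value. Itgb1bp1, Itgb1bp2 and Itgb3bp, whose symbols start alike, encode binding proteins and were left out. Of the 38 genes, 25 lay above the limit for dim genes and were tested, and 13 were dim. The limit was a mean log2 expression of 6.642 over the 6 arrays, the 40% point of all genes. Itgb3 (6.649) lay just inside it and Itga7 (6.601) just outside it.

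The RNA came from testes of 12-week-old mice, on 3 Affymetrix arrays of jsd mice and 3 of SCARKO-jsd mice. The jsd mutation, in Utp14b, is carried by both groups and arrests spermatogenesis at the spermatogonia. SCARKO-jsd mice have in addition a conditional knockout confined to Sertoli cells. The titles spell this group SCARKO-jsd while other fields read SCARO-jsd or SCARCO-jsd, and these were taken as 1 group. The driver of the recombinase and any pooling of animals are not given in the sources used here. No wild-type testis is among the arrays, so every difference below is between 2 mutant testes.

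Laminins are cross-shaped trimers of an alpha, a beta and a gamma chain that polymerise into the sheet of a basement membrane. Nidogens and agrin link that sheet to other matrix molecules. Integrins are cell surface dimers of an alpha and a beta subunit that bind laminins and other ligands outside the cell and the actin skeleton inside, and dystroglycan is a laminin receptor of another kind. In the testis, Sertoli cells, spermatogonia and peritubular cells rest on or build the basement membrane of the seminiferous tubule, and integrins are also found at the actin-rich junctions between Sertoli and germ cells.

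Array SCARKO-jsd 2 stood apart from the others. Its correlation with the other arrays across genes, which are not independent replicates, was at most 0.973, against up to 0.994 among the rest. The 3' probe set of beta-actin exceeded the 5' probe set by 1.66 log2 units in that array and by 0.70 to 0.98 in the other 5. Each result that follows is therefore also given without it where the text turns on it. The part of RNA quality in the differences was not tested.

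Among these genes, the integrin beta subunits Itgb5 and Itgb8 rose in SCARKO-jsd testes and the other 23 tested genes did not pass the test. Itgb5 rose 1.73-fold (95% interval 1.48 to 2.03) and Itgb8 2.07-fold (1.59 to 2.69). No laminin chain passed in either direction, nor did the nidogens, agrin, dystroglycan or any integrin alpha subunit. The count of 2 of 25, or 8.0%, stands beside 3.57% of all 10916 genes tested that limma called in either direction (Benjamini-Hochberg adjusted p below 0.05), and beside 1.78% called higher. At an unadjusted p under 0.05 there were 4 of 25 members (16.0%), Itga4 and Itga6 being the added ones, against 18.0% of all genes, which is about the background. The median log2 fold change was 0.09 over the 25 members and 0.04 over all genes tested.

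**Figure D1:**
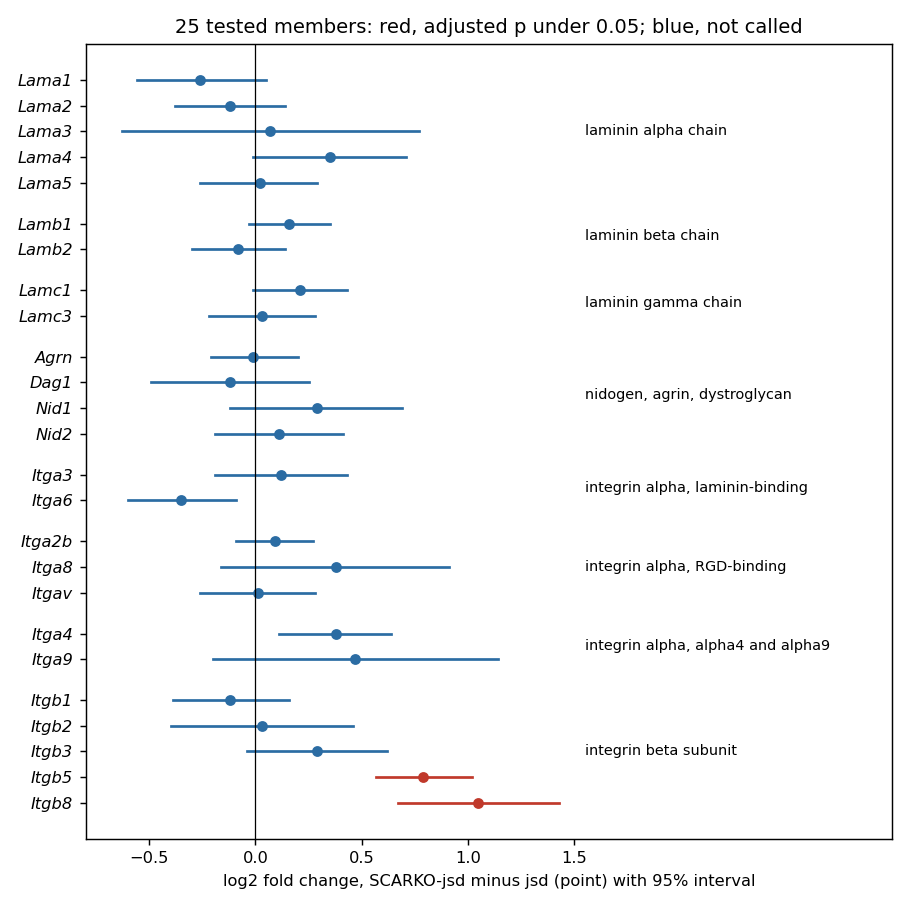
Log2 fold change (SCARKO-jsd minus jsd, horizontal axis) of the 25 tested members with its 95% interval from limma, grouped by role. The intervals of Itgb5 (0.57 to 1.02) and Itgb8 (0.67 to 1.43), in red, lie above 0 and the adjusted p of the others, in blue, did not reach the threshold.

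Itgb5 encodes the integrin subunit that pairs with the alpha-v subunit in a receptor for vitronectin. On the log2 scale it measured 9.74, 9.71 and 9.91 on jsd arrays 1 to 3, and 10.54, 10.69 and 10.51 on SCARKO-jsd arrays 1 to 3. Every SCARKO-jsd array was above every jsd array, and the gap between the groups was wider than the spread within either. The log2 fold change was 0.79 ± 0.098 (SE, n = 3 per group; limma, Benjamini-Hochberg adjusted p = 0.00723), which ranked 104 of the 194 genes that rose. The call ended without jsd 1 (0.77, adjusted p = 0.0549) and held without SCARKO-jsd 2 (0.74, adjusted p = 0.00451).

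Itgb5 was read by 4 probe sets, all of them bright. The 3 less bright ones gave log2 fold changes of 0.82, 0.89 and 0.94. In a fit of every bright probe set by itself, all 4 were called (limma, Benjamini-Hochberg adjusted p between 0.0148 and 0.0333), where 255 of 18387 probe sets were called. Probe sets of 1 gene share its transcript and can share probes, so they are not independent measurements.

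Itgb8 encodes another partner of alpha-v, in a receptor that binds the latent form of transforming growth factor beta. The single probe set that reads it gave log2 expression of 7.79, 7.51 and 8.07 on jsd arrays 1 to 3, and 8.93, 8.98 and 8.61 on SCARKO-jsd arrays 1 to 3. The groups did not overlap, although the jsd arrays were spread more widely than for Itgb5. The log2 fold change was 1.05 ± 0.16 (SE, n = 3 per group; limma, Benjamini-Hochberg adjusted p = 0.0167), which ranked 52 of the 194 rises. The call ended without jsd 1 (1.05, adjusted p = 0.0913) and without jsd 2 (0.91, adjusted p = 0.0640), and held without SCARKO-jsd 2 (0.98, adjusted p = 0.0132).

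**Figure D2:**
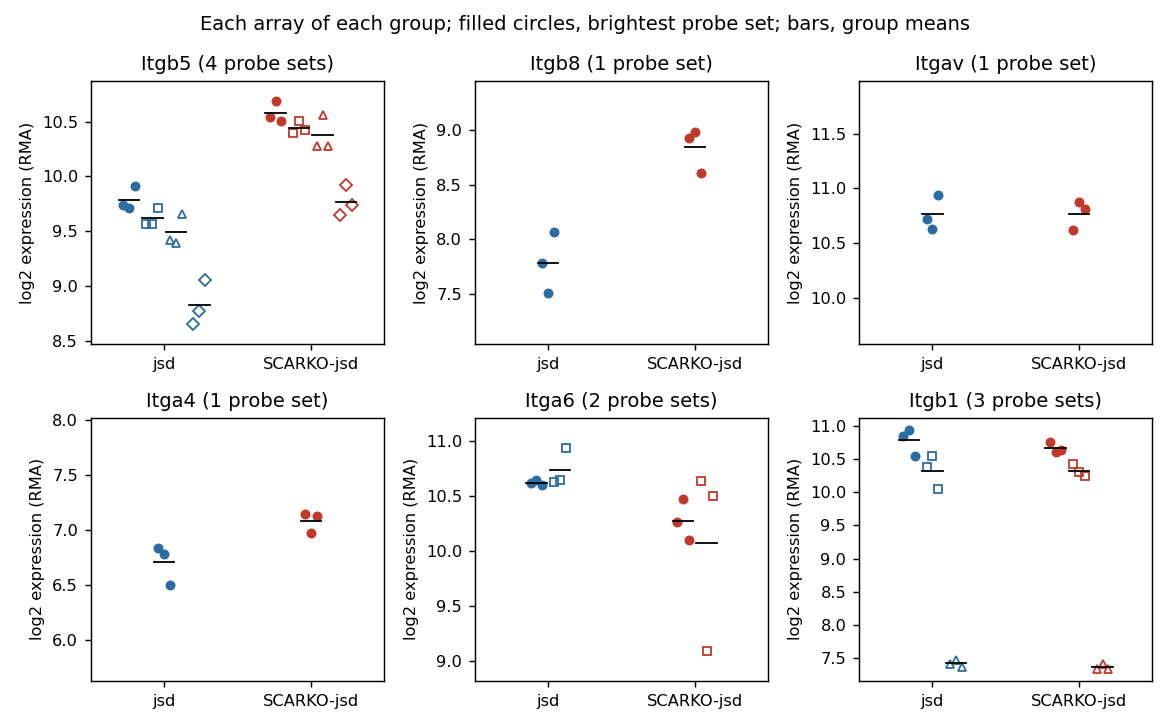
Log2 expression (RMA) on each array, jsd in blue and SCARKO-jsd in red, with bars at group means; filled circles are the brightest probe set and open symbols the other bright ones. All 4 probe sets of Itgb5 and the 1 of Itgb8 separate the groups, Itgav and Itgb1 overlap, and the second probe set of Itga6 has 1 low array (9.09, SCARKO-jsd 2).

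The 250 bases before the annotated starts of the 2 genes that rose are shown for the sequence they have in common or not, from RefSeq (GRCm38.p6, 5′ to 3′ on the gene's strand). Capitals mark GC boxes, the GC-rich motif GGGCGG on either strand. Itgb5 lies on the plus strand (chr16:33829415-33829664) and Itgb8 on the minus strand (chr12:119238277-119238526).
Itgb5: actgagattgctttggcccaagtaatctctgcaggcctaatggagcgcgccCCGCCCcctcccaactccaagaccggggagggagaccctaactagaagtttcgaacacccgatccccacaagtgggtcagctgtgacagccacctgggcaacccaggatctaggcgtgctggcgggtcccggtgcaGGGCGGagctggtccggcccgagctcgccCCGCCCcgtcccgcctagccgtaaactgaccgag
Itgb8: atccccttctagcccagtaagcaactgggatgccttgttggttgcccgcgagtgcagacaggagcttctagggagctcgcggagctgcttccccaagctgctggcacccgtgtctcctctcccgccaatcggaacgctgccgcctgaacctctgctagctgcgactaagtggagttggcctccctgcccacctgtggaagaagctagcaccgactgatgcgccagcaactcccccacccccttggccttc

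The Itgb5 window held 3 GC boxes, beginning 199, 63 and 34 bases before the start, and 18 CpG dinucleotides, and it was 65.2% G and C. The Itgb8 window held 0 GC boxes and 12 CpG dinucleotides and was 62.4% G and C. The medians over all 32851 promoter windows were 6 CpG dinucleotides and 52.4% G and C. A GC box was found in 32.7% of all windows and in 13 of the 30 windows that matched 25 of the 38 members. The other motifs searched on both strands were in neither of the 2 windows. They were AGAACA, a core of steroid hormone response elements (5 of the 30 member windows, 16.1% of all windows), TATAAA (0 of 30, 12.4%), TGACGT (1 of 30, 6.47%) and CACGTG (0 of 30, 6.02%). None of these motifs contains another, and a match of letters is a description of the window, not of a bound site.

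The alpha-v subunit that pairs with Itgb5 and Itgb8 did not pass the test, nor did its tested beta partners Itgb1 and Itgb3, while its partner Itgb6 was dim. Itgav, which encodes alpha-v, had a log2 expression of 10.72, 10.63 and 10.94 on jsd arrays 1 to 3, and 10.62, 10.88 and 10.81 on SCARKO-jsd arrays 1 to 3. The groups overlapped throughout, and the log2 fold change was 0.01 with a 95% interval of -0.26 to 0.28. Itgb1, the beta subunit shared by most matrix-binding integrins, had 10.85, 10.94 and 10.55 on jsd arrays 1 to 3, and 10.75, 10.60 and 10.63 on SCARKO-jsd arrays 1 to 3 (log2 expression). Its arrays overlapped too, with a log2 fold change of -0.12 (95% interval -0.39 to 0.16). Itgb3, a further partner of alpha-v, had a log2 fold change of 0.29 (-0.04 to 0.62). It passed the limit for dim genes only through the SCARKO-jsd arrays, whose mean was 6.79 against 6.50 in jsd.

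Itga4 encodes a subunit that binds fibronectin and the vascular adhesion molecule VCAM-1. Its arrays read a log2 expression of 6.84, 6.78 and 6.50 on jsd arrays 1 to 3, and 7.15, 6.97 and 7.13 on SCARKO-jsd arrays 1 to 3. The groups did not overlap, but the values lay close to the limit for dim genes. The log2 fold change of 0.38 ± 0.11 (SE, n = 3 per group) did not pass (limma, Benjamini-Hochberg adjusted p = 0.134), nor with any 1 array left out (adjusted p between 0.0632 and 0.343). The mean over its 5 probe sets, 4 of them dim, gave 0.14.

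Itga6 encodes a laminin receptor subunit that is used as a surface marker of spermatogonial stem cells. Its log2 expression was 10.62, 10.65 and 10.60 on jsd arrays 1 to 3, and 10.26, 10.47 and 10.10 on SCARKO-jsd arrays 1 to 3. Every SCARKO-jsd array was below every jsd array, and the log2 fold change of -0.35 ± 0.11 (SE, n = 3 per group) did not pass with all arrays (limma, Benjamini-Hochberg adjusted p = 0.151). Without SCARKO-jsd 2 it passed (-0.44, adjusted p = 0.0248), as it did with arrays weighted by their fit (-0.44, adjusted p = 0.0215). The weights gave SCARKO-jsd 2 the lowest value, 0.27, so these 2 settings are not separate checks. The other bright probe set of Itga6 had 10.63, 10.65 and 10.94 on jsd arrays 1 to 3, and 10.64, 9.09 and 10.50 on SCARKO-jsd arrays 1 to 3 (log2 expression). That probe set overlapped between the groups apart from the low value of SCARKO-jsd 2. Its log2 fold change was -0.66 with that array and -0.17 without it. In the same testes the other markers of undifferentiated spermatogonia had a median log2 fold change of 0.59 over 11 tested, but did not move one way. Of these, 2 were called higher (Dazl, 0.82, and Uchl1, 0.68) and 2 lower (Id4, -1.17, and Epcam, -0.53). Of all genes tested, 3.57% were called in either direction.

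**Figure D3:**
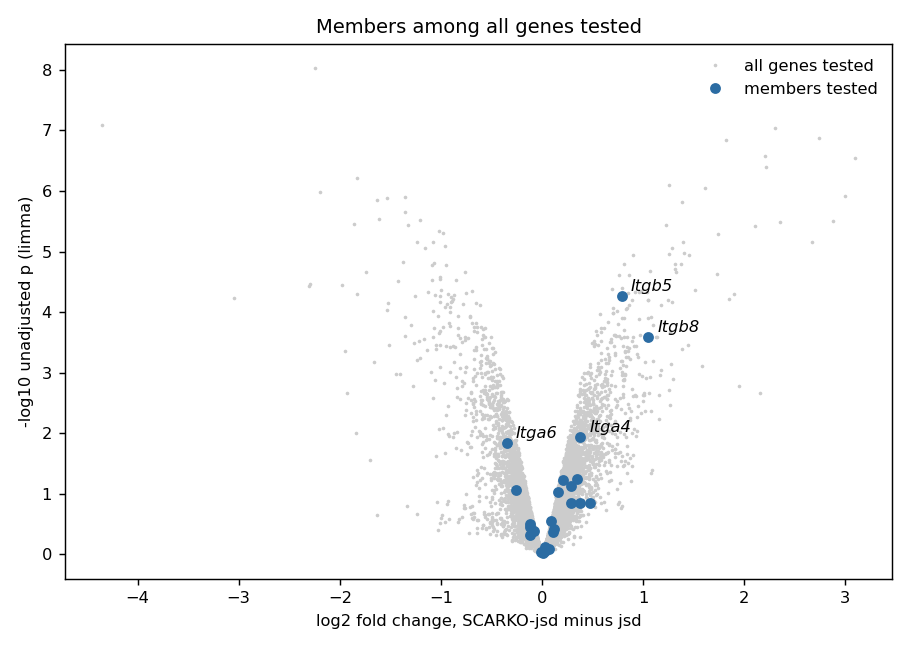
Log2 fold change (SCARKO-jsd minus jsd) against the negative log10 of the unadjusted limma p for all 10916 genes tested (grey) and the 25 members (blue). Itgb5 and Itgb8 lie on the right-hand arm among the 194 rises, Itga4 and Itga6 nearer the base, and the rest between log2 fold changes of -0.26 and 0.47.

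None of the 9 tested laminin chains passed, and their log2 fold changes ran from -0.26 to 0.35. Lama2, an alpha chain of tubule and muscle basement membranes, had 9.95, 9.86 and 9.68 on jsd arrays 1 to 3, and 9.85, 9.68 and 9.59 on SCARKO-jsd arrays 1 to 3 (log2 expression). These overlapped, with a log2 fold change of -0.12 (95% interval -0.38 to 0.14). Lama1, an alpha chain of embryonic and tubule basement membranes, had a log2 fold change of -0.26 (-0.56 to 0.05), and without SCARKO-jsd 2, its lowest array at 9.10, it was -0.12. Lama4, a chain of vessel basement membranes, had one of 0.35 (-0.01 to 0.71) with overlapping arrays. Lama3 (0.07, interval -0.63 to 0.77) was the least precise, since SCARKO-jsd 2 read 8.36 and the other SCARKO-jsd arrays 7.36 and 7.27. Lama5, a broadly expressed alpha chain, had a log2 fold change of 0.02 (-0.26 to 0.29).

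Lamb1, the beta chain of many laminins, had 10.82, 10.84 and 10.77 on jsd arrays 1 to 3, and 11.02, 10.98 and 10.90 on SCARKO-jsd arrays 1 to 3 (log2 expression). The groups did not overlap, yet the difference was small at 0.16 (log2 fold change, 95% interval -0.03 to 0.35). Its other bright probe sets gave 0.01 and 0.21. Lamb2, the beta chain found at synapses and in the kidney filter as well, had a log2 fold change of -0.08 (-0.30 to 0.14). Lamc1, the gamma chain of most laminins, had one of 0.21 (-0.01 to 0.43), again with no overlap. Lamc3, a gamma chain found at Sertoli-spermatid junctions, had 9.34, 9.18 and 9.07 on jsd arrays 1 to 3, and 9.19, 9.36 and 9.13 on SCARKO-jsd arrays 1 to 3 (log2 expression), and its log2 fold change was 0.03 (-0.22 to 0.28).

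Groups that did not overlap were found for 8 of the 25 tested members (32.0%), namely Itgb5, Itgb8, Itga4, Itga6, Lama1, Lamb1, Lamc1 and Itga2b, and for 24.6% of all genes tested. Lama1 was close to a tie, at 9.540 on jsd 3 and 9.535 on SCARKO-jsd 1. In 14 of the 23 members that did not pass, the 95% interval of the log2 fold change lay within 0.5 on either side of 0. The intervals of the other 9 reached past 0.5 on one side or both, and those of Itga4 and Itga6 left out 0 although their adjusted p did not pass.

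Dag1 encodes dystroglycan, whose sugar chains bind laminin and agrin. The brightest probe set read a log2 expression of 11.75, 11.51 and 11.22 on jsd arrays 1 to 3, and 11.26, 11.61 and 11.25 on SCARKO-jsd arrays 1 to 3. The groups overlapped and the log2 fold change was -0.12 (95% interval -0.49 to 0.25). Its 3 less bright probe sets were lower by more (-0.39, -0.44 and -0.50), and none of them passed in the fit by probe set (limma, Benjamini-Hochberg adjusted p between 0.264 and 0.349). Without SCARKO-jsd 2 the 4 probe sets of Dag1 gave -0.24, -0.28, -0.29 and -0.38. Without jsd 1, the highest jsd array on each of them, the brightest gave 0.01, so no direction is claimed for Dag1.

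The probe sets of Nid1, which bridges laminin and collagen IV, went opposite ways. The brightest gave a log2 fold change of 0.29 (-0.12 to 0.69) and the other bright one -0.36, neither past the threshold, so no direction can be given for Nid1. Nid2, the second nidogen, had a log2 fold change of 0.11 (-0.19 to 0.41). Agrn, which encodes the heparan sulfate proteoglycan agrin, had one of -0.01 (-0.21 to 0.20).

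**Figure D4:**
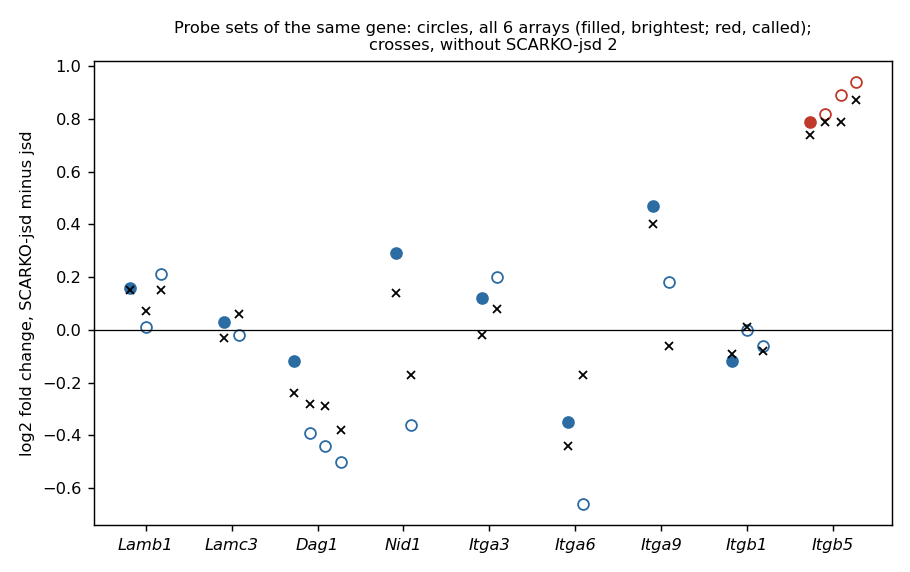
Log2 fold change of every bright probe set for the 9 members that have more than 1, with all 6 arrays (circles; filled, brightest; red, called) and without SCARKO-jsd 2 (crosses). The 4 of Itgb5 lie between 0.79 and 0.94, those of Nid1 on either side of 0, and the second of Itga6 moves from -0.66 to -0.17 without that array.

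Among the other integrin alpha subunits, Itga9, which binds tenascin and related ligands with Itgb1, had 9.03, 8.82 and 7.89 on jsd arrays 1 to 3, and 8.75, 9.20 and 9.20 on SCARKO-jsd arrays 1 to 3 (log2 expression). The low value of jsd 3 set most of its log2 fold change of 0.47 (95% interval -0.20 to 1.14), which was 0.13 without that array. Itga8, the nephronectin receptor subunit, had a log2 fold change of 0.38 (-0.16 to 0.91), and without SCARKO-jsd 2, its highest array at 7.80, it was 0.09. Itga3, a laminin receptor subunit, had one of 0.12 (-0.19 to 0.43). Itga2b, the platelet subunit, had one of 0.09 (-0.09 to 0.27), and Itgb2, the leukocyte beta subunit, 0.03 (-0.40 to 0.46).

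The 13 dim members were Lamb3, the collagen receptor subunits Itga1, Itga2 and Itga10, the fibronectin receptor subunit Itga5, the muscle laminin receptor subunit Itga7, the leukocyte subunits Itgae, Itgal, Itgax and Itgb7, and Itgb2l, Itgb4 and Itgb6. Their log2 expression ran from 4.03 to 6.92 and their log2 differences from -0.35 (Itgax) to 0.30 (Itga1). At such levels a real change can be hidden by background, and no call was made. Itga1, the brightest of the collagen receptor subunits, had 6.31, 5.93 and 5.90 on jsd arrays 1 to 3, and 6.22, 6.52 and 6.28 on SCARKO-jsd arrays 1 to 3 (log2 expression). Itgax, an alpha subunit of dendritic cells and macrophages, had 5.96, 5.75 and 5.81 on jsd arrays 1 to 3, and 5.39, 5.51 and 5.58 on SCARKO-jsd arrays 1 to 3. The groups overlapped for Itga1 and not for Itgax.

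Around these receptors, 1 gene rose in each of 3 lists and no gene fell with all 6 arrays. Of all genes tested, 1.78% were called higher and 3.57% in either direction. No set test was run, so these counts are not a result about the lists. Of 24 tested adaptors that bind integrin tails or their partners, Parva (alpha-parvin, which sits between integrin-linked kinase and actin) rose, from 8.72, 8.57 and 8.54 on jsd arrays 1 to 3 to 9.09, 9.48 and 9.14 on SCARKO-jsd arrays 1 to 3 (log2 expression). Its groups did not overlap, and the log2 fold change was 0.62 ± 0.12 (SE, n = 3 per group; limma, Benjamini-Hochberg adjusted p = 0.0400). The call of Parva did not survive leaving out any 1 jsd array, or SCARKO-jsd 3 (largest adjusted p 0.164), nor taking the mean of its 2 probe sets (0.27, adjusted p = 0.221). Without SCARKO-jsd 2, a pair of adaptors of adhesion sites was called lower, Tns3 (-0.56, limma adjusted p = 0.0434) and Zyx (-0.43, adjusted p = 0.0393). With all arrays they read -0.42 and -0.33 and did not pass (adjusted p of 0.222 and 0.185). With weighted arrays, where SCARKO-jsd 2 counted least, Tns3 was called (-0.55, adjusted p = 0.0365). The list median was -0.03, and talin (Tln1, 0.07), kindlin-2 (Fermt2, 95% interval -0.27 to 0.27) and integrin-linked kinase (Ilk, -0.10), the core of the adhesion complex, did not pass.

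Of 9 tetraspanins and other membrane partners, Cd9, a tetraspanin that associates with beta-1 integrins, rose. It went from a log2 expression of 9.10, 9.11 and 9.38 on jsd arrays 1 to 3 to 10.09, 10.05 and 9.79 on SCARKO-jsd arrays 1 to 3, again with no overlap. The log2 fold change was 0.78 ± 0.12 (SE, n = 3 per group; limma, Benjamini-Hochberg adjusted p = 0.0167). Leaving out jsd 1 or jsd 2 ended the call (largest adjusted p 0.0968). The other 8 did not pass, among them the laminin-binding integrin partner Cd151 (0.01), and the list median was 0.00.

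Of 17 other basement membrane and ligand genes, Col4a1 rose (0.55, limma, Benjamini-Hochberg adjusted p = 0.0317), 16 did not pass, and the median was 0.14. The call of Col4a1 ended without any 1 array other than SCARKO-jsd 2 (adjusted p up to 0.121). It also ended when its probe sets were averaged (0.47, adjusted p = 0.113). Col4a2, which pairs with it in collagen IV, did not pass (0.49, adjusted p = 0.0615), nor with any 1 array left out (limma adjusted p between 0.0562 and 0.174). It passed with a further quantile normalization (0.49, adjusted p = 0.0359), with trend and robust (0.49, adjusted p = 0.0416) and with weighted arrays (0.40, adjusted p = 0.0420). It also passed with centring over the genes tested (0.45, adjusted p = 0.0354), an alternative chosen after seeing the data. The ligands of the alpha-v receptors in this list, vitronectin (Vtn, 0.18, 95% interval -0.23 to 0.59) and fibronectin (Fn1, 0.29, -0.01 to 0.59), did not pass. Of 11 genes of the dystroglycan complex and its glycosylation none was called by limma, 4 were at an unadjusted p under 0.05 (18.0% of all genes tested were), and the median was -0.15. The smallest p values there were those of Dtnb (0.36), a dystrobrevin, and Sgcb (-0.33), a sarcoglycan, with limma Benjamini-Hochberg adjusted p of 0.139 and 0.141. The other bright probe set of Dtnb gave -0.21 and the mean of both 0.08, so no direction can be given for it. Sgcb was called lower with weighted arrays (-0.37, adjusted p = 0.0445) and with centring over the genes tested (-0.37, adjusted p = 0.0473), but not with the mean of its probe sets (-0.23, adjusted p = 0.565). Over all genes tested the median was 0.04.

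**Figure D5:**
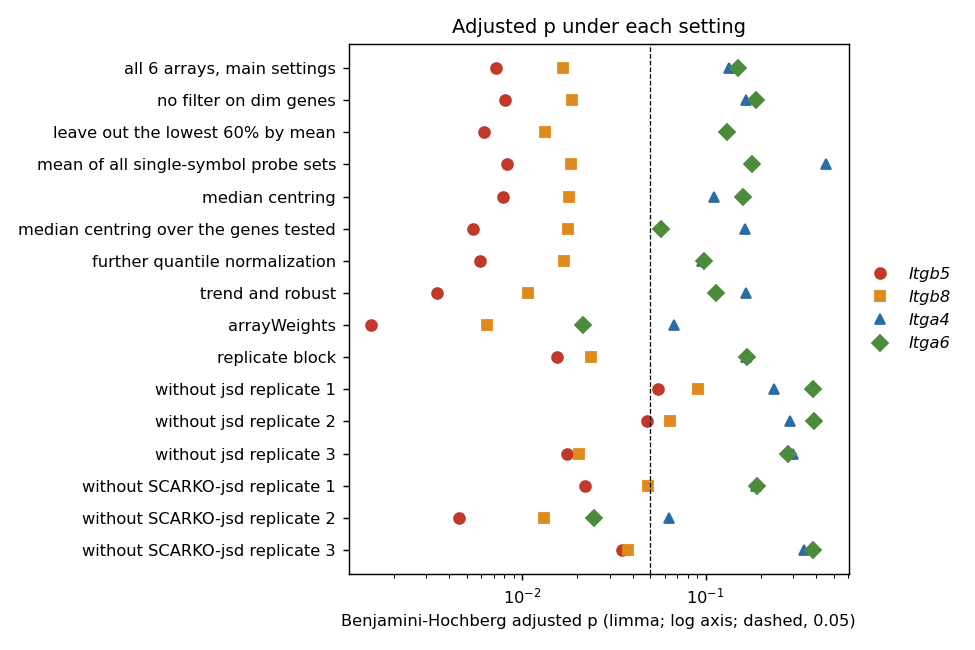
Benjamini-Hochberg adjusted p from limma (log axis) of Itgb5, Itgb8, Itga4 and Itga6 under the main settings and each alternative, with the threshold of 0.05 dashed. Itgb5 crosses it without jsd 1, Itgb8 without jsd 1 or jsd 2, and Itga6 comes under it with weighted arrays and without SCARKO-jsd 2; a gene has no point where a filter left it out.

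Markers of several cell types also differed between the groups, and in RNA of a whole testis fewer cells of a type and less RNA per cell cannot be told apart. Of 21 Sertoli cell markers, 4 fell and 17 did not pass, and the median log2 fold change was -0.13. Those that fell were Rhox5 (-4.35), Drd4 (-2.25), Tsx (-1.54) and Wt1 (-0.48). More of the 17 that did not pass read lower than higher. The lowest were Eppin (-0.50), Espn (-0.30) and Gata1 (-0.27), and the highest Inha (0.33), Amh (0.33) and Dmrt1 (0.37). The rest lay between -0.17 and 0.19. Amh was near the limit for dim genes, with mean log2 expression of 6.83 in jsd and 7.16 in SCARKO-jsd. Dmrt1 was highest on SCARKO-jsd 2, at 10.80 against 10.04 on SCARKO-jsd 1 and 10.30 on SCARKO-jsd 3. The list mean, which the 3 large falls weigh on, had log2 levels of 10.97 to 11.18 over the jsd arrays and 10.55 to 10.81 over the SCARKO-jsd arrays. Of 9 tested markers of differentiating and meiotic germ cells, 3 rose (Sycp3, Meig1 and Stra8), and the mean levels were 7.34 to 7.68 and 7.95 to 8.47. Those of undifferentiated spermatogonia (11 tested) were 8.30 to 8.53 and 8.47 to 8.81. In both of these lists the highest level was on SCARKO-jsd 2. On SCARKO-jsd 1 and 3 the differentiating and meiotic list had 7.95 and 8.34. The undifferentiated list had 8.47 and 8.69 on those arrays. Endothelial markers, 10 tested, had mean levels of 7.78 to 8.06 and 7.75 to 8.25, the highest on SCARKO-jsd 2. Their median log2 fold change was 0.20, although 1 gene was called lower (Kdr, -0.79). The 7 Leydig, 10 peritubular myoid and 16 macrophage markers held no called gene by limma (0, 0 and 1 at an unadjusted p under 0.05). Over all genes tested, 3.57% were called and 18.0% were at an unadjusted p under 0.05. At that share a list this short can hold no call, so these cell types are not shown to be unchanged. Of 13 T, B and mast cell markers 12 were dim, and of 8 platelet and red cell markers 4 were dim and 1 fell (Alas2). The part of cell composition in the rises of Itgb5, Itgb8, Parva and Cd9 was not tested.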

How the data were processed

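Affymetrix arrays were hybridised with labelled testis RNA, per the labels' protocols. The authors deposited log2 expression values, 1 for each probe set. The submitters' processing notes name RMA and the affy package (version: not given in the sources used here). This method normalizes the arrays toward a shared distribution, so a shift of most transcripts one way can be removed by it. The deposited values did not fully share one. The median log2 value was 6.263 in SCARKO-jsd 2 and 6.40 to 6.41 in the others. With a further quantile normalization, 513 genes were called in place of 390. The 6 arrays held 45101 probe sets, with values of 2.58 to 14.84 and 0 missing. GEO's platform annotation gave 1 symbol to 34945 probe sets, several to 932, and none, or a control, to 9224. The 38 member symbols all matched RefSeq (GRCm38.p6) through the gene ID.

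The probe set with the highest mean stood for each gene, the lowest 40% of genes were left out, and 10916 genes were fitted with limma 3.58.1 (lmFit, eBayes) under R 4.3.3. Genotype was the single term and tests were two-sided, Benjamini-Hochberg over all of them, threshold 0.05. The fit was tested on simulated data. The design text gives 3 mice of each genotype, no label says which animal gave which array, and p-values measure only how these samples spread. Array-by-array values are given for members with an unadjusted or adjusted p under 0.05 and the brightest member of each role. From the lists of related genes, called genes, or otherwise the 2 with the smallest p, are named. Tln1, Fermt2, Ilk, Cd151, Vtn, Fn1, Tns3, Zyx, Col4a2, Eppin, Espn, Gata1, Inha, Amh and Dmrt1 were named after their values were seen. The members, lists and tests were chosen with earlier results of these data known. No 2 arrays held identical values. Alternatives were other filters on dim genes, the mean of probe sets, each probe set by itself, median centring, a further quantile normalization, trend and robust, arrayWeights, a replicate block, other thresholds and each array left out. Figures were drawn with matplotlib 3.10.9. The number of arrays limits the precision (median SE of a log2 fold change 0.11). The gene knocked out is not reported here.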

Additional observations from a re-analysis of the deposited data

How the results depend on the processing

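The count of 390 called genes became 111 at an adjusted p under 0.01, 728 at 0.1, 860 with arrayWeights (388 of the 390 kept, though the weights stopped short of their convergence tolerance) and 635 with centring on the median of the genes tested, an alternative chosen after seeing the data. With 1 array left out it lay between 78, without jsd 1, and 768, without SCARKO-jsd 2, with 119 without jsd 2, 141 without SCARKO-jsd 3 and 239 without jsd 3. The 2 called members became 1 at an adjusted p under 0.01 (Itgb5), and between 0 (without jsd 1) and 3 (without SCARKO-jsd 2, Itga6 added) with 1 array left out. With the replicate block, 397 genes (315 of the 390 among them) and 2 members were called, and Parva was not (adjusted p = 0.0516). Same-numbered arrays were not taken as pairs, since the correlations of their deviations from the group means were -0.21, 0.23 and 0.24, and not every array correlated best with its own number. The log2 fold change of Itgb5 lay between 0.74 and 0.94 and that of Itgb8 between 0.91 and 1.19 over all alternatives run. Over the 25 tested members and their alternatives, 380 in all, 3 calls were lost (Itgb5 once and Itgb8 in 2 cases, both named above), 2 were gained (Itga6) and 0 turned direction. The sign of 11 uncalled members turned under at least 1 alternative, Nid1, Itgav, Dag1 and Lama3 among them, so no direction is claimed for those. The median shift of all genes stayed at or under 0.076 on the log2 scale in each alternative. Counting Itgb1bp1, Itgb1bp2 and Itgb3bp as members left 2 called. The causes of these shifts were not tested, and the fits that leave one out also rest on fewer arrays.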

Other observations

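Npnt and Thbs1, both named after their values were seen, were too dim for the main test and were called when dim genes were kept. Npnt encodes nephronectin, a basement membrane protein that binds the receptor of Itga8 and Itgb1. Its log2 expression was 6.10, 5.97 and 5.62 on jsd arrays 1 to 3, and 6.84, 7.56 and 7.23 on SCARKO-jsd arrays 1 to 3. The groups did not overlap, and the log2 fold change was 1.31 (limma with no filter on dim genes, Benjamini-Hochberg adjusted p = 0.0166). The second of its 5 probe sets gave 1.11 and the other 3 gave 0.26, 0.19 and 0.02, and all 5 have means under the limit for dim genes. Thbs1 encodes thrombospondin-1, a ligand of several integrins, and was lower, at 6.90, 6.84 and 6.21 on jsd arrays 1 to 3, and 5.40, 5.72 and 5.59 on SCARKO-jsd arrays 1 to 3 (log2 expression). Its log2 fold change was -1.08 (limma with no filter on dim genes, adjusted p = 0.0282), with -0.59 on its second probe set. At these levels the size of both differences is uncertain.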
